A study of Mus musculus with 6 samples.

Results

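The nuclear genes for respiratory complexes II to V were compared between mouse induced pluripotent stem (iPS) cells and nuclear transfer embryonic stem (ntES) cells. A gene belonged when its array probe set carried a single platform symbol for a succinate dehydrogenase subunit (Sdha to Sdhd), a Uqc gene, Cyc1, Cycs, a subunit of Cox4 to Cox8 or an Atp5 gene. This gave 51 of the 19308 genes with such a probe set, or 72 of the 23344 probe sets, and each gene was read at its brightest probe set, by the mean of all 6 arrays. Cox7c was not read, because each of its 3 probe sets also carried the symbol Gm12338. There were 4 genes of complex II, 12 of complex III with its assembly factors, 1 for cytochrome c, 17 of complex IV and 17 of complex V.

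Both groups came from tail-tip fibroblasts of telomerase-deficient mice of generation 3 (G3 Terc-/-), which lack the RNA template of telomerase, so that the iPS and the ntES cells share the deletion, and no group of cells with intact Terc was analysed here. The iPS cells had been made by induced reprogramming and the ntES cells by transfer of a somatic nucleus into an egg. All cells were grown on mitomycin C-treated embryonic fibroblast feeders, and each group had 3 arrays. The series' design text speaks of biological repeats of a cell line, so the p-values cover only the scatter among these arrays, and an effect of the line cannot be told apart from one of the method if a group holds a single line. By its title the study asked about telomeres and mitochondria of reprogrammed cells, and the subunit genes bear on the second. The pluripotency factors Pou5f1, Sox2 and Nanog read at least 11.11 (log2) on every array, and none of the 3 passed the test. Pluripotency markers were not level between the groups, however. Of a wider list of 21, 6 passed as lower in ntES cells, among them Zfp42, and none as higher. These are 28.6% of the list, against 6.13% of all probe sets, and the median difference of the list was -0.17 (log2).

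Complex II (succinate dehydrogenase) takes electrons from succinate and gives them to ubiquinone. Complex III passes them on to cytochrome c, and complex IV (cytochrome c oxidase) passes them to oxygen. Complexes III and IV pump protons, and complex V (ATP synthase) makes ATP from their return through its membrane ring. Pluripotent cells are known for strong glycolysis with a working respiratory chain. Several complex IV subunits have a broad isoform and a second one known from muscle, lung or testis. The subunits encoded in the mitochondrial genome were not analysed here.

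In ntES cells 4 of the 51 genes fell and none rose. Cox6b2, the testis isoform of subunit 6b of complex IV, was 1.53-fold lower, and Atp5mpl, a small membrane proteolipid of ATP synthase, 1.45-fold lower. Cox4i1, the broad isoform of subunit 4 of complex IV, was 1.34-fold lower, and Sdhc, a membrane anchor of complex II, 1.29-fold lower. A gene was called at a Benjamini-Hochberg adjusted p under 0.05 from limma, adjusted over all probe sets. The 4 falls were 7.84% of the genes, against 6.13% of all probe sets called lower and 5.19% called higher. Among the 40 genes with a mean of 9 or more (log2) the same 4 fell, while 10.2% of all probe sets that bright were called lower and 5.32% higher. The share of lower calls thus lay near the background of these arrays, and the share of higher calls, at 0, below it. The split of all calls depended on centring, with 45.9% of them higher in ntES cells as deposited, 30.1% after median centring (6 of the 51 genes lower, none higher) and 57.1% after centring on bright probe sets (5 lower and 2 higher). Of all probe sets, median centring called 8.19% lower and 3.53% higher, and centring on bright probe sets 5.87% and 7.8%. At an unadjusted p under 0.05 by limma there were 9 genes lower and 1 higher in ntES cells, or 17.6% and 1.96% of the 51, against 12.1% and 12.4% of all probe sets. Among the 40 brighter genes 20% were lower and 0% higher, against 20.4% and 11.6% of all probe sets that bright. The share of lower genes thus lay at the background of bright probe sets here too.

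The differences lay on both sides of 0, with 25 genes above it and 26 below. Their median was -0.01 (log2, ntES minus iPS), where the median of all probe sets was 0.04. The range ran from -0.61 for Cox6b2 to 0.34 for Atp5k, with a median standard error (SE) of 0.11. The iPS and ntES values did not overlap for 7 genes that were lower in ntES cells and for 2 that were higher. These are 13.7% and 3.92% of the genes, against 12.9% and 13.6% of all probe sets. With a mean of 9 or more, the shares were 15% and 0% of the genes, against 15.7% and 10.1% of all probe sets that bright. For the 47 genes that were not called, the 95% intervals lay between -0.63 (Atp5pb) and 0.56 (Atp5k).

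**Figure D1:**
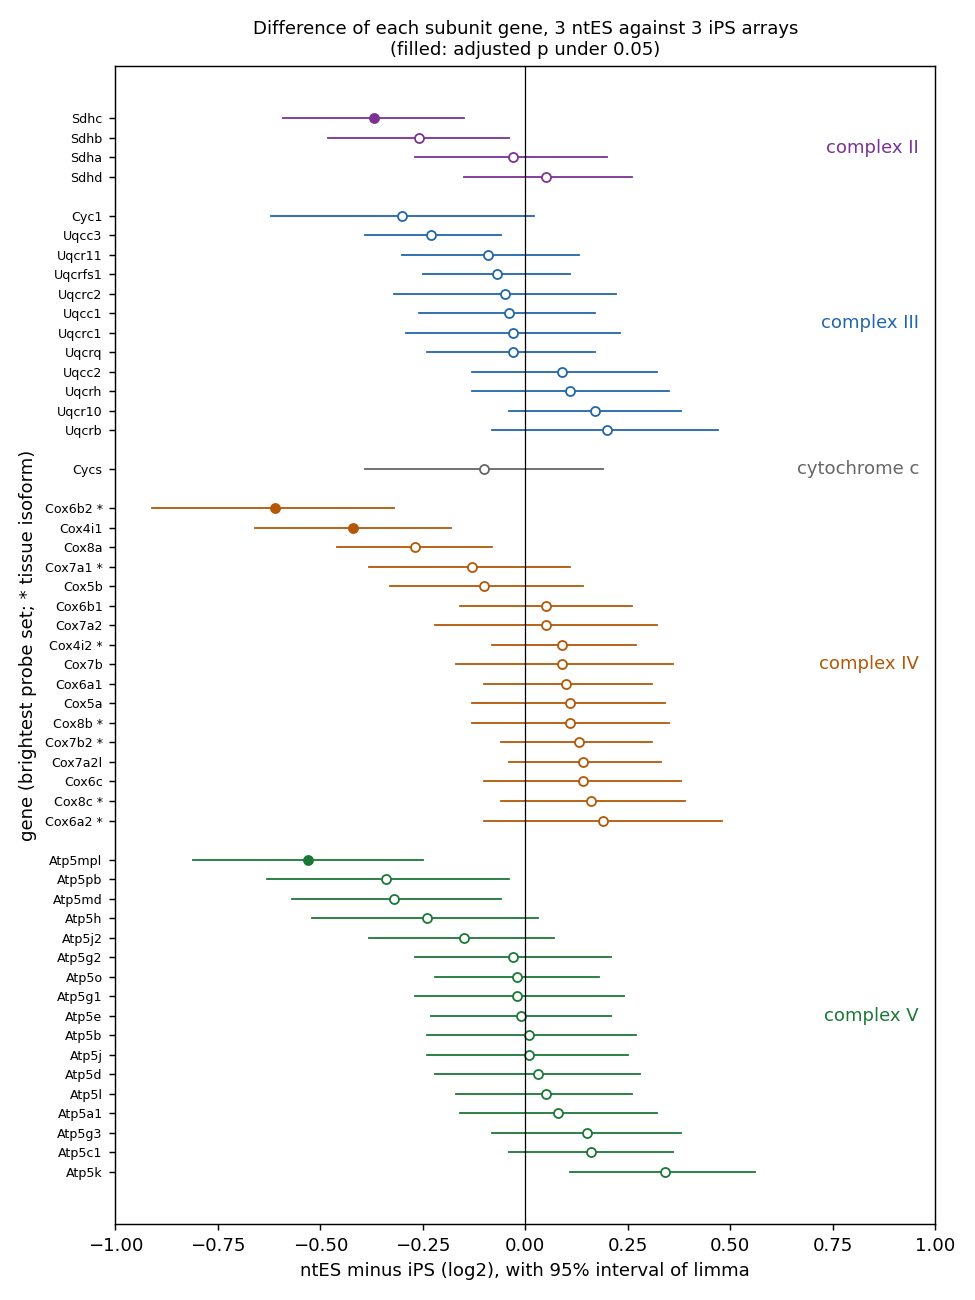
The difference of each of the 51 genes between 3 ntES and 3 iPS arrays on the log2 scale (x axis), with the 95% interval from limma as a line, by complex (y axis); filled points passed an adjusted p of 0.05, and asterisks mark tissue isoforms. The filled points are Sdhc, Cox6b2, Cox4i1 and Atp5mpl, all left of 0, and most other intervals cross 0.

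The genes shared a pattern across arrays that did not follow the groups. Each gene was set against its own mean over the 6 arrays, and the median of these deviations was 0.05 and 0.06 on iPS replicates 1 and 2 and -0.10 on iPS replicate 3. On ntES replicates 1, 2 and 3 it was -0.17, -0.02 and 0.15. Of the 51 genes, 45 had their lowest ntES value on replicate 1, 45 had their highest ntES value on replicate 3, and 44 had their lowest iPS value on replicate 3. All probe sets with a mean of 9 or more moved in the same way, by 0.07, 0.08 and -0.09 on the iPS arrays and by -0.20, -0.03 and 0.17 on the ntES arrays. Probe sets with a mean under 9 had deviations of the opposite sign on all 6 arrays, at -0.04, -0.04 and 0.01 on the iPS arrays and 0.07, 0.04 and -0.05 on the ntES arrays. The spread within groups behind each value below includes this shift, which is as wide for bright probe sets in general as for the subunit genes.

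**Figure D2:**
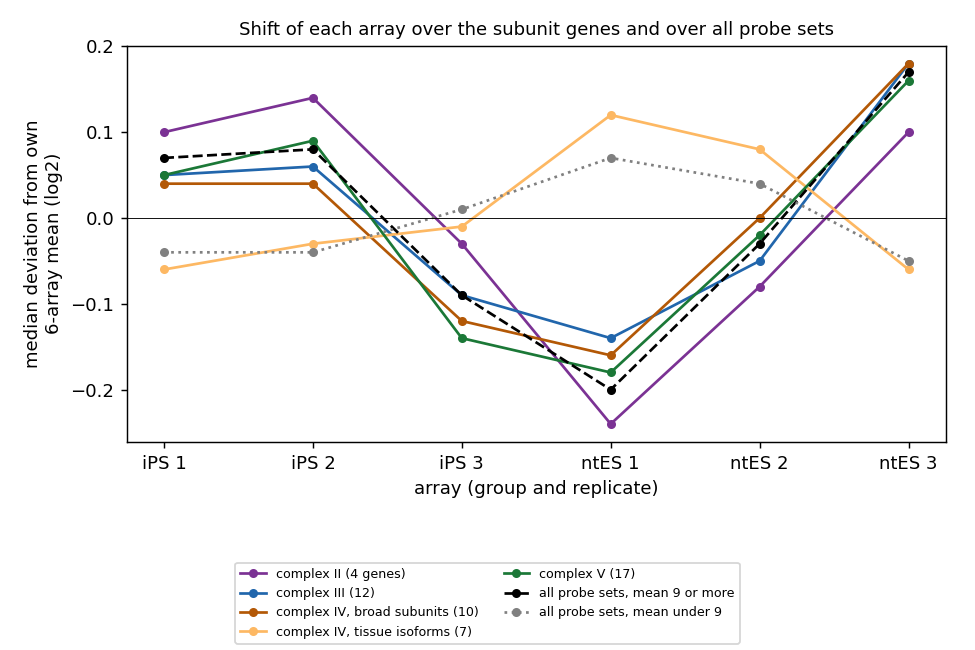
Median deviation of each gene from its own 6-array mean (y axis, log2) on each array (x axis), for each complex and for all probe sets above and below a mean of 9. Complexes II, III and V and the broad subunits of complex IV follow the dashed line of bright probe sets, low on ntES replicate 1 and high on ntES replicate 3, while the tissue isoforms of complex IV lie closer to the dotted line of dimmer probe sets.

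In complex II the subunits differed among themselves. Sdhc, which helps to hold the ubiquinone site and its haem in the membrane, read 10.58, 10.52 and 10.39 on the iPS arrays and 10.01, 10.08 and 10.30 on the ntES arrays (log2). Every iPS value lay above every ntES value, and the difference was -0.37 ± 0.10 (log2, SE; limma adjusted p = 0.0360). Sdhd, the other anchor of the same site, read 9.98, 9.97 and 9.86 on the iPS arrays and 9.85, 9.99 and 10.14 on the ntES arrays. Its groups overlapped, and the 95% interval of its difference ran from -0.15 to 0.26. Sdhb, the iron-sulfur subunit that carries electrons to the membrane part, read 9.68, 9.80 and 9.60 against 9.28, 9.42 and 9.60, with a difference of -0.26 ± 0.10 (SE; limma adjusted p = 0.137). Its lowest iPS and highest ntES values both round to 9.60, and the groups did not overlap. Sdhb passed as lower under 3 of 18 alternative settings, namely quantile normalization, array weights and leaving out ntES replicate 3. Sdha, the flavoprotein that oxidises succinate, differed by -0.03 with an interval from -0.27 to 0.20.

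The ratio of 2 subunits on the same array leaves out a shift that the array gives to both, and it shows only that they changed unequally. Set to a mean of 0 over the iPS arrays, the log2 ratio of Sdhc over Sdhd was 0.04, -0.01 and -0.03 there and -0.39, -0.47 and -0.41 on the ntES arrays. Sdhb over Sdha moved less, to -0.20, -0.23 and -0.24 on the ntES arrays. Neither ratio overlapped between groups, and an exact two-sided permutation test gave 0.1 for each, the smallest p that 3 arrays against 3 allow. Sdhc and Sdhb already did not overlap by themselves, so these p-values are no separate support for a difference.

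No gene of complex III passed the test on the values as deposited, and 1 of the 12 (8.33%) had an unadjusted p under 0.05 (limma). Of all probe sets 6.13% were called lower and 5.19% higher, and 12.1% and 12.4% had such an unadjusted p. The largest difference in the complex was that of Cyc1, the cytochrome c1 haem protein that hands electrons to cytochrome c. It read 10.77, 10.86 and 10.65 on the iPS arrays and 10.10, 10.54 and 10.73 on the ntES arrays (log2), so that 2 ntES values lay below the iPS range and 1 within it. Its difference was -0.30 ± 0.14 (SE; limma adjusted p = 0.226), with the widest spread in any group, an SD of 0.32 over the ntES arrays. Cyc1 passed as lower under 3 of 18 alternative settings, namely quantile normalization, array weights and leaving out ntES replicate 3. The last gave -0.44 (limma adjusted p = 0.0399). Uqcc3, which helps to assemble cytochrome b into the complex, read 8.13, 8.15 and 8.13 against 7.88, 7.95 and 7.90. Its groups did not overlap and were narrow, and the difference was -0.23 ± 0.07 (SE; limma adjusted p = 0.0798). Uqcc3 passed as lower under 5 of 18 alternative settings, namely with array weights, after quantile normalization or median centring, with a variance trend, and by the unmoderated test. The core proteins Uqcrc1 and Uqcrc2 and the Rieske iron-sulfur protein Uqcrfs1 differed by -0.03, -0.05 and -0.07.

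The small accessory subunits of complex III lay on both sides of 0. Uqcrb read 11.94, 12.01 and 11.76 on the iPS arrays and 11.87, 12.08 and 12.36 on the ntES arrays (log2), with the groups overlapping. Uqcrb and Uqcr10 differed by 0.20 and 0.17, the hinge protein Uqcrh by 0.11, Uqcrq by -0.03 and Uqcr11 by -0.09. For Uqcrb the dimmest of its 3 probe sets differed by -0.02, and the other by 0.11. Uqcrb passed as higher under 3 of 18 alternative settings, namely quantile normalization, array weights and centring on bright probe sets. The assembly factors Uqcc1 and Uqcc2 differed by -0.04 and 0.09. Over the 12 genes the median difference was -0.04.

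Cycs, the somatic cytochrome c that shuttles electrons from complex III to complex IV and triggers apoptosis once released, gave different answers by probe set. At its brightest probe set, with a mean of 12.13, the difference was -0.10 ± 0.13 (SE; limma adjusted p = 0.688). The values there were 12.19, 12.31 and 12.05 on the iPS arrays and 11.83, 12.05 and 12.37 on the ntES arrays (log2), with full overlap. A second probe set, with a mean of 9.27, differed by -0.46 ± 0.14 (SE; adjusted p = 0.0668). The third, with a mean of 7.06, differed by -0.31 ± 0.09 (SE; adjusted p = 0.0404) and was called. Which of the 3 reads the gene itself and which a copy was not tested.

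In complex IV the broad subunits had a median difference of 0.07, and 1 of 10 fell. Cox4i1, whose product is the first nuclear subunit to join the core of the enzyme and binds ATP, read 10.92, 10.93 and 10.65 on the iPS arrays and 10.27, 10.39 and 10.58 on the ntES arrays (log2). All ntES values were below all iPS values, and the difference was -0.42 ± 0.11 (SE; limma adjusted p = 0.0332). Cox8a, the broad isoform of subunit 8, also did not overlap, at 11.55, 11.66 and 11.52 against 11.22, 11.26 and 11.43. Its difference of -0.27 ± 0.09 (SE) did not pass (limma adjusted p = 0.0787). It passed as lower under 4 of 18 alternative settings, namely median centring (-0.33), quantile normalization, array weights and leaving out ntES replicate 3. Cox5b, the zinc-binding subunit, differed by -0.10 at its brighter and by -0.27 at its dimmer probe set.

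The other 7 broad subunit genes of complex IV lay above 0. Cox6a1 read 10.83, 10.85 and 10.72 on the iPS arrays and 10.79, 10.88 and 11.05 on the ntES arrays (log2), and Cox7a2 10.56, 10.59 and 10.36 against 10.34, 10.53 and 10.81. Cox7b read 12.09, 12.24 and 12.08 against 11.97, 12.25 and 12.46. In all 3 the groups overlapped. Cox6c and Cox7a2l differed by 0.14, Cox5a by 0.11, Cox6a1 by 0.10, Cox7b by 0.09, and Cox7a2 and Cox6b1 by 0.05. Cox7a2l, which ties complexes III and IV into supercomplexes, read 8.86, 8.74 and 8.63 on the iPS arrays and 8.85, 8.90 and 8.92 on the ntES arrays, with the groups overlapping at 1 iPS value. Its other probe set differed by 0.13. None of these differences passed, and their 95% intervals reached no further than -0.22 and 0.38.

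The tissue isoforms of complex IV were taken apart from the broad ones. Of the 7, Cox6b2 fell, and the other 6 did not pass. Cox6b2 read 10.02, 9.98 and 9.79 on the iPS arrays and 9.02, 9.37 and 9.58 on the ntES arrays (log2). The groups were apart, with ntES replicate 1 the lowest, and the difference was -0.61 ± 0.13 (SE; limma adjusted p = 0.0152). Cox6b1, its broad counterpart, read 11.26, 11.21 and 11.04 against 11.13, 11.18 and 11.35, which overlapped. With the iPS mean set to 0, the log2 ratio of Cox6b2 over Cox6b1 was 0.00, 0.01 and -0.01 on the iPS arrays and -0.87, -0.57 and -0.53 on the ntES arrays (exact two-sided permutation p = 0.1, the smallest possible). Cox6b2 alone already separated the groups, so this p is no separate support for its call. The markers of testis germ cells are given beside Cox6b2. Of 24 such genes none fell (2 at an unadjusted p under 0.05, limma), where 6.13% of all probe sets were called lower. In this list 19 lay above 0, as did 58.9% of all probe sets. Ldhc, the testis lactate dehydrogenase, rose by 0.43, and such calls were 4.17% of these genes, against 5.19% of all probe sets. The log2 of their summed level ran from 11.93 to 11.99 on the iPS arrays and from 11.92 to 11.99 on the ntES arrays. Only 4 of the 24 had a mean of at least 7.66, the median of all probe set means. Ldhc, at 6.54 to 7.20, and the sperm chromatin genes Prm1 and Tnp1 stayed under it on every array. Of all probe sets with a mean of at least 7.66, 46.5% lay above 0. The share was thus higher among dimmer probe sets, where most of this list lies.

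Cox6a2, Cox7b2, Cox8b and Cox8c had means below that median probe set, where background weighs most. Cox7b2, the testis isoform of subunit 7b, had the same value to 6 decimals, 6.06, on 4 of the 6 arrays, and its difference was 0.13. Cox8c, the testis isoform of subunit 8, read 7.31, 7.23 and 7.38 on the iPS arrays and 7.61, 7.53 and 7.27 on the ntES arrays, with a difference of 0.16. Its ntES replicate 3 lay within the iPS range and the other ntES arrays above it. Cox8b, the muscle isoform of that subunit, read 6.86, 6.85 and 6.68 against 7.08, 6.93 and 6.70, a difference of 0.11. Cox6a2, the muscle isoform of subunit 6a, read 7.30, 7.42 and 7.72 against 7.83, 7.74 and 7.43, a difference of 0.19. Both overlapped between groups. Without ntES replicate 3, Cox8c passed as higher (limma adjusted p = 0.0424). With array weights Cox6a2, Cox7b2, Cox8b and Cox8c all passed as higher, where 39.9% of all probe sets did. Cox4i2, the lung isoform of subunit 4, read 7.63, 7.68 and 7.68 against 7.83, 7.73 and 7.71. Its groups did not overlap, but the difference of 0.09 had an interval from -0.08 to 0.27 (limma adjusted p = 0.492).

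Cox7a1, the muscle isoform of subunit 7a, was the other tissue isoform with a mean above 9. It read 9.14, 9.40 and 9.19 on the iPS arrays and 8.93, 9.10 and 9.30 on the ntES arrays (log2), and differed by -0.13 (limma adjusted p = 0.5). Its ratio over Cox7a2 overlapped between groups (exact two-sided permutation p = 0.2). Of 28 markers of skeletal and heart muscle, 27 lay above 0, as did 58.9% of all probe sets. Only 13 of the 28 had a mean of at least 7.66, the median of all probe set means. Of all probe sets that bright 46.5% lay above 0, so the share was higher among dimmer ones. In this list 3 rose (10.7%, against 5.19% of all probe sets), among them Des, the muscle intermediate filament, by 0.74. The log2 of the summed level of that list ran from 12.74 to 12.76 on the iPS arrays and from 12.87 to 13.10 on the ntES arrays, and Myod1, Myog and Ckm stayed below 7.66 throughout. The part of this list in the values of the muscle isoforms was not tested.

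**Figure D3:**
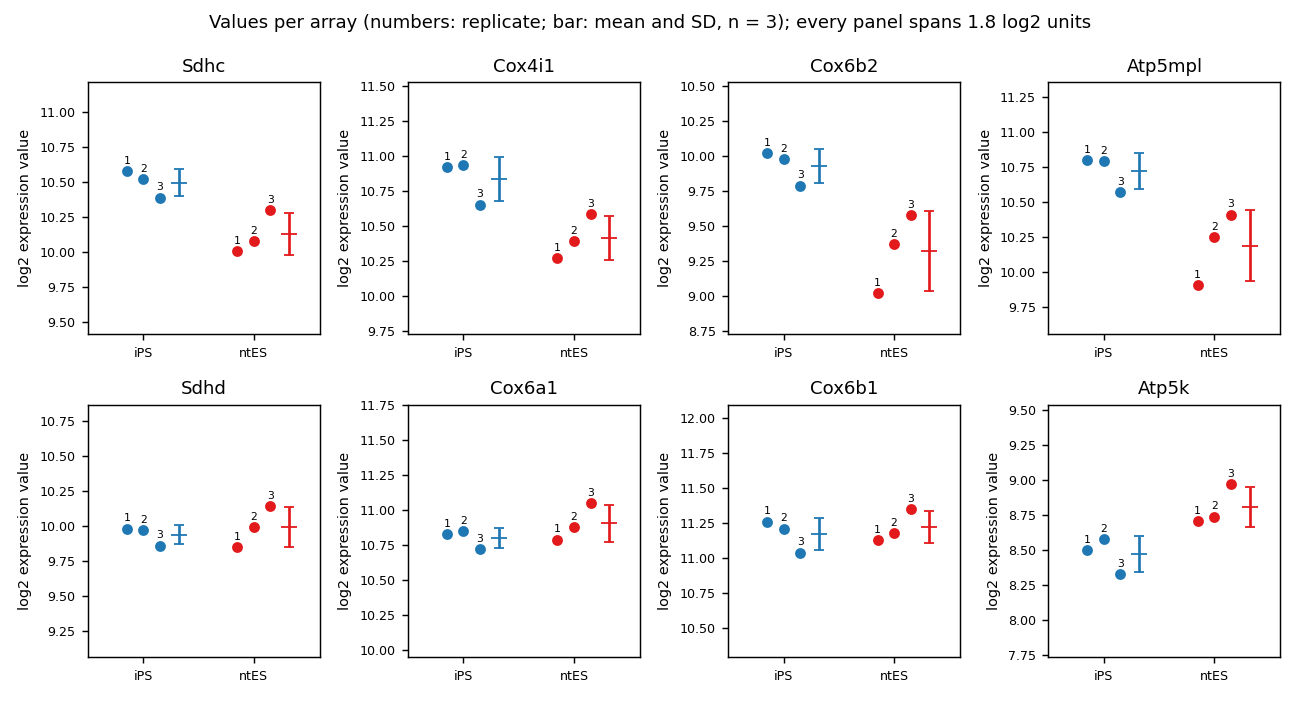
Log2 expression values (y axis) of 8 genes on each iPS (blue) and ntES (red) array, with replicate numbers at the points and the mean and SD (n = 3) as bars. The upper panels hold the 4 genes that fell, each with ntES values all under the iPS values; below them are Sdhd, Cox6a1 and Cox6b1, whose groups overlap, and Atp5k, whose ntES values all lie above.

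In complex V none of the 5 genes of the catalytic head and the central stalk passed the test, or had an unadjusted p under 0.05 (limma). Of all probe sets 6.13% were called lower and 5.19% higher, and 12.1% and 12.4% had such an unadjusted p. With shares this low, 5 genes without a call say little. Atp5a1 and Atp5b, the alpha and beta subunits that form the catalytic sites, differed by 0.08 and 0.01. The shaft subunit Atp5c1 differed by 0.16, and the stalk subunits Atp5d and Atp5e by 0.03 and -0.01. The 95% intervals of these 5 genes lay within -0.24 and 0.36.

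The 3 subunit c genes encode the same mature protein, which forms the ring that protons turn. Atp5g1 read 12.15, 12.16 and 11.94 on the iPS arrays and 11.87, 12.05 and 12.29 on the ntES arrays (log2), a difference of -0.02. Atp5g2 read 12.13, 12.18 and 11.92 against 11.88, 12.04 and 12.22, a difference of -0.03. Atp5g3 read 11.35, 11.39 and 11.11 against 11.33, 11.39 and 11.58, a difference of 0.15. All 3 overlapped between groups. Other probe sets of Atp5g1 and Atp5g2 lay above 0, between 0.09 and 0.15, and none passed.

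The peripheral stalk, which keeps the head from turning with the ring, had differences below 0 for 3 of its 4 genes. Atp5pb (subunit b) read 11.28, 11.33 and 11.13 on the iPS arrays and 10.63, 10.89 and 11.21 on the ntES arrays (log2). Of the ntES values 2 lay under the iPS range and 1 within it, and the difference was -0.34 ± 0.13 (SE; limma adjusted p = 0.150). Atp5h (subunit d) differed by -0.24, and its other probe sets by -0.15 and -0.17. Atp5o, the subunit named for conferring sensitivity to oligomycin, and Atp5j (coupling factor F6) differed by -0.02 and 0.01. Both Atp5pb and Atp5h were called lower without ntES replicate 3, after quantile normalization and with array weights.

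The small membrane subunits of complex V spread the most. Atp5mpl read 10.80, 10.79 and 10.57 on the iPS arrays and 9.91, 10.25 and 10.41 on the ntES arrays (log2). The groups were apart, and the difference was -0.53 ± 0.13 (SE; limma adjusted p = 0.0235). Atp5k, the subunit e that takes part in joining ATP synthases into dimers, went the other way at 8.50, 8.58 and 8.33 against 8.71, 8.74 and 8.97. No ntES value lay as low as an iPS value, but the difference of 0.34 ± 0.10 (SE) did not pass (limma adjusted p = 0.0573). Atp5k passed as higher under 7 of 18 alternative settings, among them quantile normalization (0.37; adjusted p = 0.0014) and leaving out ntES replicate 1 (adjusted p = 0.0361). Atp5md, also called DAPIT, differed by -0.32, -0.21 and -0.14 at its 3 probe sets, in order of brightness. It passed as lower after quantile normalization, with array weights, without ntES replicate 3 and after centring on bright probe sets. Atp5j2 (subunit f) differed by -0.15. Atp5l (subunit g) read 9.89, 9.93 and 9.87 on the iPS arrays and 9.77, 9.94 and 10.12 on the ntES arrays (log2), which overlapped. It differed by 0.05, and its 4 other probe sets by -0.05 to 0.06.

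Whether the calls held depended on which single array was left out. Cox6b2 did not pass without iPS replicate 1 (adjusted p = 0.0876), iPS replicate 2 (0.0791) or ntES replicate 2 (0.0649). Atp5mpl did not pass without the same arrays, at 0.120, 0.117 and 0.0852, nor did Cox4i1, at 0.161, 0.168 and 0.151, or Sdhc, at 0.172, 0.156 and 0.180. Without ntES replicate 1, Cox4i1 (0.0637) and Sdhc (0.0684) did not pass either. The count of falls was 0 when iPS replicate 1, iPS replicate 2 or ntES replicate 2 was left out (6, 5 and 6 at an unadjusted p under 0.05, limma). It was 2 without ntES replicate 1, 4 (the same genes) without iPS replicate 3 and 10 without ntES replicate 3. The share of all probe sets called lower moved too, and was 2.41%, 2.34% and 2.33% in the fits with no fall. Without ntES replicate 1, iPS replicate 3 and ntES replicate 3 that share was 5.17%, 5.22% and 11.9%. All 4 differences were below 0 whichever array was left out, between -0.46 and -0.74 for Cox6b2 and between -0.31 and -0.45 for Sdhc. Without the 2 arrays of narrowest spread, iPS replicate 3 and ntES replicate 1, the same 4 genes fell. Sdhc also did not pass with a variance trend and robust priors in limma (adjusted p = 0.0596) or with the replicate number as a block (0.0723).

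Each of these genes was also set against the median shift of the other broad members of its complex on the same array, an addition made after the values were seen. On that scale, with the iPS mean at 0, Cox4i1 lay at -0.46, -0.47 and -0.48 on the ntES arrays, and Sdhc at -0.27, -0.38 and -0.35. Atp5mpl lay at -0.64, -0.46 and -0.49, Cox6b2 at -0.77, -0.58 and -0.54, and Atp5k at 0.44, 0.30 and 0.35. The iPS arrays stayed within 0.08 of their mean for all 5 genes. No gene overlapped between groups, and the exact two-sided permutation p was 0.1 each time, the smallest possible. The groups of all 5 genes already did not overlap on these same arrays, and no other gene was put through this step. The outcome was thus nearly set beforehand and is no separate support for the calls. The mean differences on this scale were -0.34 for Sdhc, -0.63 for Cox6b2, -0.47 for Cox4i1, -0.53 for Atp5mpl and 0.36 for Atp5k, close to those between arrays.

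The genes around the 4 that fell were read in gene order, with 10 measured genes on each side. Of all genes read at their brightest probe set, 6.16% were called lower and 5.25% higher. Atp5mpl had 6 of its 20 neighbours called lower and none higher. All 10 on one side lay below 0, with a median of -0.33, and 5 of these were called. The gene next to it, Ppp1r13b, differed by -0.27 and did not pass, and the nearest called were Zfyve21 at -0.39 and the recombination gene Xrcc3 at -0.58. Coa8, which serves the assembly of complex IV, lay 5 genes away and changed by -1.42 (limma adjusted p = 3.65e-05), and Trmt61a and Mark3 changed by -0.76 and -0.46. On the other side the median was -0.03 and 1 of 10 was called, so that Atp5mpl stood at the edge of the run. Whether the run moved as a unit was not tested.

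Cox6b2 had 2 of 20 neighbours called lower, where 6.16% of all genes were. Among them was the gene next to Cox6b2, Kmt5c, a histone methyltransferase, at -0.44 (limma adjusted p = 0.0107). The median of its neighbours was 0.05. The median was -0.02 around Cox4i1, with 3 of 20 called lower, and 0.04 around Sdhc, with 2 called lower and 1 higher. Emc8, which lies next to Cox4i1, differed by -0.13 and did not pass. Among all 51 genes, 6 had 4 or more called-lower neighbours, namely Cox8c, Uqcc3, Atp5j2, Atp5mpl, Cox8a and Cox8b, of which only Atp5mpl was called itself. How often genes in general have as many was not tested. Over the 51 genes the median of the neighbour medians was 0.04, the same as the median of all probe sets.

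**Figure D4:**
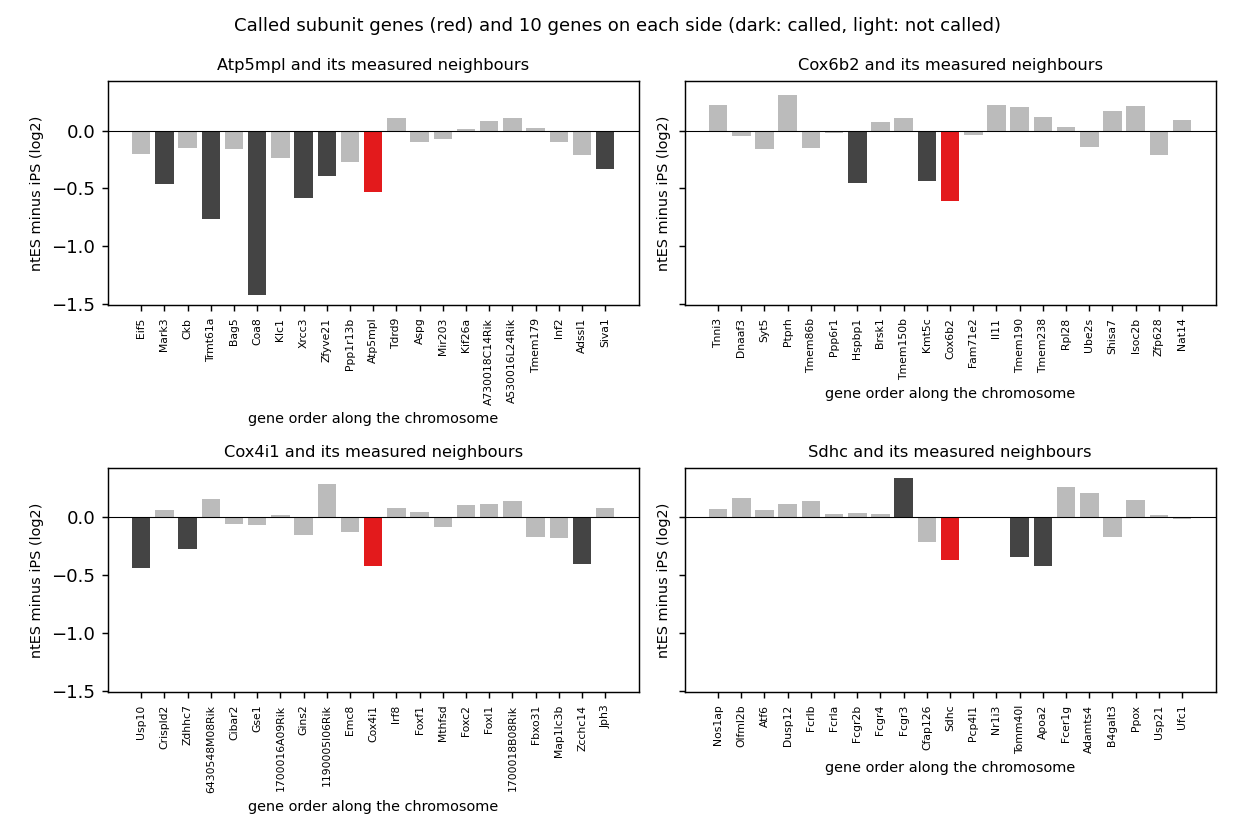
Difference between ntES and iPS cells (y axis, log2) of the 4 genes that fell (red) and of the 10 measured genes on each side in chromosome order (x axis), with called neighbours dark and others light. The bars left of Atp5mpl all lie below 0, whereas the bars around Cox6b2, Cox4i1 and Sdhc lie on both sides.

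Promoter sequences from RefSeq (GRCm38.p6) were found for 39 of the 51 genes, with Cox6b2 the only one of the 4 that fell; Sdhc, Cox4i1 and Atp5mpl were without an entry. Each window held 300 bases, 250 before the start and 50 after it. The pair of subunit 6b isoforms is shown because one fell and the other did not, and Sdhd and Atp5k because their values stood higher in ntES cells relative to Sdhc and Atp5mpl of the same complex. Capitals mark matches on either strand to CCAAT (the NF-Y box), GGGGCGGGG (a GC box of the SP1 family), CCGGAAG (an ETS site as bound by GABP) and CGCANGCG (the core of the NRF1 site), which do not overlap in these 4. Only the 250 bases before the start are printed, 5′ to 3′ on the strand of the gene.
Cox6b2, chr7:4753095-4753344, minus strand: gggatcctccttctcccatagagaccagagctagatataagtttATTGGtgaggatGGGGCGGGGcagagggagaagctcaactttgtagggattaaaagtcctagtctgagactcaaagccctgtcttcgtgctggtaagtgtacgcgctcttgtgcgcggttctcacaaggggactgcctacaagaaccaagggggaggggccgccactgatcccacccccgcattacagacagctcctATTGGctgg
Cox6b1, chr7:30626115-30626364, minus strand: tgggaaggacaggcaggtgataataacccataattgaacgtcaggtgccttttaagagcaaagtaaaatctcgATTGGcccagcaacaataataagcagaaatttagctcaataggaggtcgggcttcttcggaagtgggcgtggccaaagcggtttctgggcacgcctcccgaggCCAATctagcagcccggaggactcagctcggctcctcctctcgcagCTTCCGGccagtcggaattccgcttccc
Atp5k, chr5:108434400-108434649, minus strand: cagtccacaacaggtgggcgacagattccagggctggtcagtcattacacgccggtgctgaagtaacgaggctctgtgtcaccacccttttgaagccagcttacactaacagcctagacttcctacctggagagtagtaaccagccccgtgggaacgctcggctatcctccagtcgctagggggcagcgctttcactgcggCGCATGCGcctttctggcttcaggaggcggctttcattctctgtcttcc
Sdhd, chr9:50603850-50604099, minus strand: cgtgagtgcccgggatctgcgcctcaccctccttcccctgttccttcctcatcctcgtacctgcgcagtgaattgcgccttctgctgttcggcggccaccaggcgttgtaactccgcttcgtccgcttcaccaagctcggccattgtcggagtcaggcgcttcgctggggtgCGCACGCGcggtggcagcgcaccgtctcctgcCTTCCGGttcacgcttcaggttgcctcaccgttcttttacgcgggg

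Before its start Cox6b2 held 2 CCAAT boxes and a GC box, and neither the NRF1 core nor the ETS letters. Cox6b1 held 2 CCAAT boxes and an ETS site, Atp5k an NRF1 core (its ETS letters do not lie wholly within the printed bases), and Sdhd an NRF1 core and an ETS site. NRF1 and GABP are known activators of nuclear genes for respiratory subunits. Over the whole windows, 16 of the 39 genes (41%) held the NRF1 core, against 8.42% of 27025 mouse promoters. The ETS letters were in 12 (30.8%), against 9.12%. Both stood in 7 genes, namely Atp5h, Atp5k, Atp5l, Atp5md, Cox6a1, Sdhd and Uqcr11, or 17.9%, against 1.56%. A GC box stood in 8 (20.5%, against 11.6%) and a CCAAT box in 23 (59%, against 37.9%).

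The median differences of genes with and without these letters lay close together, apart from the GC box. The median difference was 0.01 for genes with the NRF1 core and -0.01 for those without, and 0.02 and -0.02 for the ETS letters. For the CCAAT box it was -0.02 with and 0.02 without. The 8 genes with a GC box had a median of -0.13, against 0.03 for the others, and no gene lay at that median. Cox6b2, Atp5pb, Sdhb and Uqcc3 lay between -0.61 and -0.23, and Atp5g2, Atp5e, Atp5b and Uqcc2 between -0.03 and 0.09. These are descriptions of a few genes, and a match is not a bound site.

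Related gene lists are given for comparison. Of 15 measured regulators of respiratory genes, Pprc1, a coactivator of nuclear respiratory genes, and Tfb1m, a mitochondrial rRNA methyltransferase, fell by 0.72 and 0.50 on the log2 scale, and none rose (none at an unadjusted p under 0.05 by limma either). Nrf1 itself differed by -0.13 (limma adjusted p = 0.403). Of 39 assembly factors for complexes II to V, 4 fell and 3 rose. Besides Coa8 they were Lyrm7, which helps to place the Rieske protein, at -0.43, Cmc2 at -0.44 and Sdhaf3, a factor for the iron-sulfur subunit of succinate dehydrogenase, at -0.34. The copper chaperone Cox17 rose by 0.45, Tmem70, a factor for ATP synthase, by 0.44 and Higd1a by 0.55. Of 43 genes named Nduf, most of them for complex I and its assembly factors, 4 fell and none rose (4 were higher at an unadjusted p under 0.05, limma), with a median of -0.01. Ndufa4, which is known as a subunit of complex IV despite its name, is among them and differed by -0.19 (limma adjusted p = 0.354). Of 77 mitochondrial ribosomal protein genes, 8 fell and 4 rose, with a median of -0.10. The falls were 13.3% of the regulators, 10.3% of the assembly factors, 9.3% of the Nduf genes and 10.4% of the ribosomal protein genes. Of all probe sets 6.13% were called lower, and 10.2% of those with a mean of 9 or more, so these shares of calls lay near that of bright probe sets. At an unadjusted p under 0.05 (limma) 35.9% of the assembly factors were lower and 10.3% higher, against 20.4% and 11.6% of bright probe sets. The groups did not overlap for 28.2% lower and 15.4% higher, against 15.7% and 10.1%. The other 3 lists had 20% to 20.9% lower at that unadjusted p. The assembly factors include Uqcc1, Uqcc2 and Uqcc3, which are among the 51 genes. The rises were 7.69% of the assembly factors and 5.19% of the ribosomal protein genes, against 5.19% of all probe sets.

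Fibroblast markers, to which the feeder cells also contribute, mostly stood higher in ntES cells beside these results. Of 25 measured, 24 lay above 0, against 58.9% of all probe sets. Of these 25 markers 9 rose (36%, against 5.19% of all probe sets) and 1 fell (4%, against 6.13%). The 1 that fell was Thy1, at -0.60 (limma adjusted p = 0.00498). The log2 of their summed level ran from 15.26 to 15.56 on the iPS arrays and from 15.56 to 15.93 on the ntES arrays. Of 21 pluripotency markers 6 fell (28.6%, against 6.13% of all probe sets), among them Zfp42 at -0.49. None rose (2 were higher at an unadjusted p under 0.05, limma), and the median was -0.17. In bulk RNA, fewer cells of a type and less RNA per cell cannot be told apart, and the part of the feeder cells in the values of the respiratory genes was not tested.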

How the data were processed

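Total RNA of 3 iPS and 3 ntES samples was labelled with biotin and hybridised to Affymetrix arrays; the submitters' processing notes name GCOS 1.4. The deposited table gives 23344 probe sets in log2 units, as judged from its range of 3.61 to 13.66. The authors' background correction, normalization and build are not stated in the sources read. Array medians lay between 7.61 and 7.70, and because these were close the values were used unscaled. The SDs ran from 1.51 to 1.74, so the arrays differed in spread, which did not enter this choice. The number of arrays limits the precision.

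Groups came from the sample titles. The difference (ntES minus iPS) came from a limma 3.58.1 fit (R 4.3.3) over the whole table with Benjamini-Hochberg adjustment, and was read at the brightest probe set of each gene. The fit was tested on simulated data. Genes described in full were, by rule, those called, the 2 of each complex with the largest difference, isoform families, and genes whose probe sets disagreed in sign or by over 0.3; of each related list, up to 4 called genes. The members and lists were chosen with earlier results of these data known. Genes named outside the rule were chosen after their values were seen. Gene order came from the GRCm38.p6 gene table, where all 51 genes were found. Tables were handled with Python 3.11.15 and pandas 2.3.3. Probe sets with 1 symbol can still read transcribed gene copies, which bears on genes with several probe sets.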

Additional observations from a re-analysis of the deposited data

How the results depend on the processing

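The 4 genes called lower and the 0 called higher depended on the settings, while no called difference changed sign under any of the 18 alternatives. Lower and higher calls numbered 11 and 6 after quantile normalization (21.6% and 11.8% of the genes, against 15.8% and 14.3% of all probe sets). They numbered 21 and 9 with array weights, whose estimate stopped before convergence (41.2% and 17.6%, against 25.5% and 39.9%). With the unmoderated test they numbered 1 (Uqcc3) and 0, or 1.96% and 0%, against 1.58% and 1.43% of all probe sets. At an adjusted p of 0.01 none was called (9 and 1 at an unadjusted p under 0.05), where 2.7% of all probe sets were called lower and 2.23% higher. The higher call was 1 (Atp5k) without dim probe sets, with a variance trend and robust priors, and with the mean of a gene's probe sets, and 2 with centring on bright probe sets, chosen after the data were seen. Of everything tested in these fits, 7.8%, 7.99%, 5.71% and 7.8% were called higher, in that order. Leaving out 1 array gave 0 to 10 lower and 0 to 1 higher calls, where 2.33% to 11.9% of all probe sets were called lower and 2.01% to 9.68% higher. With the replicate block 3 fell (5.88%, against 4.79% of all probe sets), Sdhc being lost (limma adjusted p = 0.0723). The numbers did not pair the arrays. Deviations of same-numbered arrays correlated at -0.431, -0.103 and -0.721, and no array correlated best with its own number. Median centring gave 6 lower and 0 higher calls, and turned the share of all probe sets called lower and higher into 8.19% and 3.53%. The median of the tissue isoforms was -0.13 without dim probe sets, where only 3 were left, and leaving out 1 array put it between 0.06 and 0.19 and that of complex IV between 0.00 and 0.12. The cause of these shifts was not tested. The planned log transform of linear values was not needed. Signal over background limits the 4 tissue isoforms with means below the median probe set.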
